A study of Homo sapiens with 2 samples.

Results

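Transcripts of 10 genes of the hypoxia-inducible factor (HIF) pathway were examined: the factor HIF1A, its regulators VHL, EGLN1, EGLN2 and EGLN3, and the targets ANKRD37, ADM, CA9, BNIP3 and NDRG1, none of which is a glycolytic enzyme. Members were the probe sets that the platform annotation gives to 1 of these genes alone. Of the 10 genes, 9 had such a probe set, 16 probe sets in all, among 19775 genes and 41091 probe sets with 1 gene symbol. CA9 had none and is not analysed here as a transcript. The arrays were made from total RNA of Ca9-22 cells, a human gingival squamous carcinoma line, stably transduced with a RUNX2 vector (1 array) or an empty vector (1 array). Both cultures were selected with blasticidin and kept in a CO2 incubator, and the labels name no hypoxic treatment. The labels do not say whether the stable cells were 1 clone or a pool.

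Cells destroy the HIF alpha subunit as long as oxygen is present. The prolyl hydroxylases of the EGLN family mark it by hydroxylation, and VHL, the substrate-binding part of a ubiquitin ligase, binds the marked protein. When hydroxylation fails, HIF1A pairs with ARNT, binds short hypoxia response elements and switches on genes for blood vessel growth, pH control, autophagy of mitochondria and glycolysis. Some of those genes, EGLN3 among them, feed back on the pathway. Much of this control acts on the protein, which arrays of transcripts do not measure.

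With 1 array in each group there is no replicate error, no test was made, and every value is a description of these arrays. The members were selected on the log2 ratios between these arrays, so counts and medians over them support nothing beyond the values. Levels are the authors' deposited intensities in arbitrary units, with the array labelled RUNX2 multiplied by 0.966 to give both arrays the same 2% trimmed mean. The median of each array, 51.8 for the array labelled RUNX2 after scaling and 55.3 for the empty vector array, served as the floor. A probe set above the floor on at least 1 array was called measured. Values under the floor were set to the floor, which turns the ratio into a bound. Levels are compared between arrays within a probe set, and between probe sets only to choose the brightest of a gene. Ratios of probe sets for the same gene spread with an SD of 0.293 on the log2 scale over 6165 genes. This spread within the pair of arrays is called the technical SD here. It includes ratios that are bounds, and it does not measure error between arrays or cultures.

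The labels of the arrays were not settled by the RUNX2 transcript itself. Of 6 RUNX2 probe sets, 3 were measured, 2 were 4.17-fold and 3.47-fold higher in the array labelled RUNX2, and 1 was 4.03-fold lower. Each direction below therefore rests on the labels. All 7 squamous epithelial markers that had their own probe set, of 10 listed, were measured, and they did not go 1 way. KRT14 was 2.69-fold higher, with 1579 in the array labelled RUNX2 and 586 in the empty vector array, and EPCAM 1.85-fold lower, with 2666 in the array labelled RUNX2 and 4930 in the empty vector array. The part of this difference in the member values was not tested. None of 5 leukocyte markers was measured. Of 7 fibroblast markers, COL1A1 was measured, with 1553 in the array labelled RUNX2 and 1937 in the empty vector array, and THY1 near the floor. The other 5 were below the floor on both arrays. The 4 endothelial markers gave PECAM1 and VWF near the floor and the others below it.

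Of the 8 measured member genes, EGLN3, ANKRD37 and ADM were at least 2-fold higher in the array labelled RUNX2, and 0 were at least 2-fold lower. Among all 12729 measured genes, 1.42% were higher and 1.47% lower by that size. BNIP3 and NDRG1 brought the count to 5 at a threshold of 1.5-fold, a size that 5.77% of all genes reached upwards and 6.88% downwards, with 0 members among those. All 8 measured members had log2 ratios above 0, as did 42.7% of all genes. Their median log2 ratio was 0.73, beside -0.06 over all measured genes. In RNA from a whole culture, more cells with a transcript and more transcript per cell cannot be told apart.

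**Figure D1:**
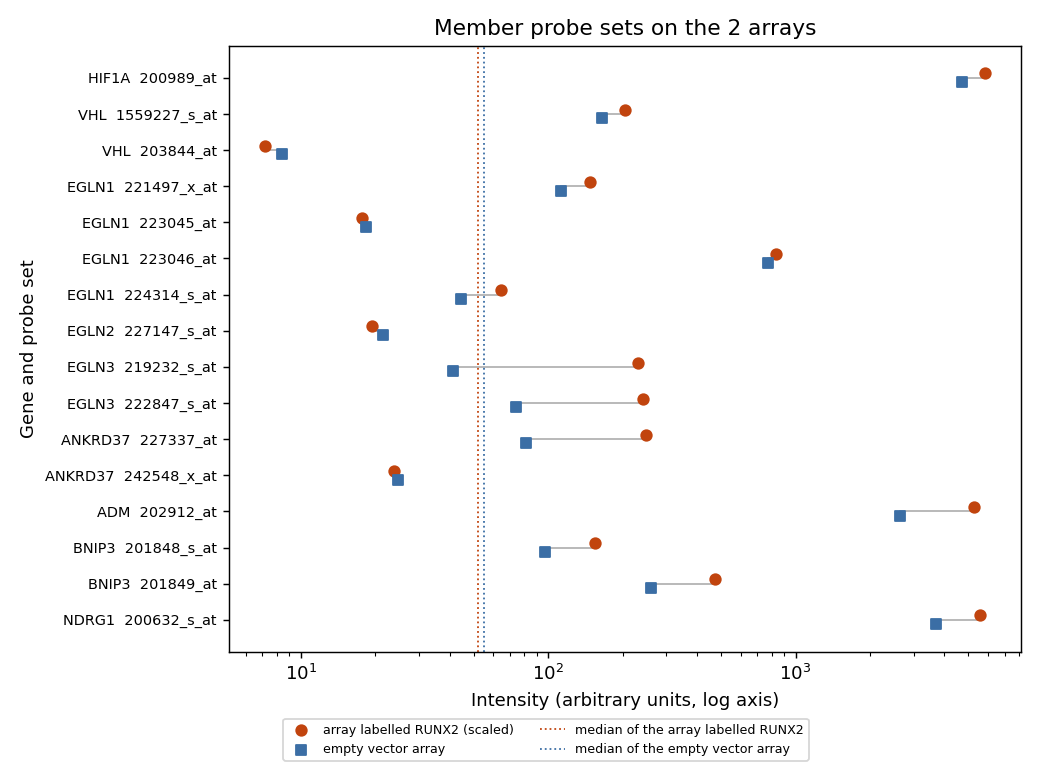
Intensity (arbitrary units, log axis) of each of the 16 member probe sets on the array labelled RUNX2 (circles, scaled) and on the empty vector array (squares), 1 array each, with the median of each array as a dotted line. The widest gaps are in both EGLN3 probe sets and in 227337_at of ANKRD37, and 4 probe sets lie below the medians on both arrays.

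EGLN3 had the highest ratio of the members. This prolyl hydroxylase (also called PHD3) is itself induced by HIF and has a part in the response to long hypoxia. Its probe set 222847_s_at had a level of 242 in the array labelled RUNX2 and 74.3 in the empty vector array, a log2 ratio of 1.70 (3.26-fold). The empty vector level was near the floor of 55.3, so the size of this ratio depends on the handling of low values. Raising the floor to the 75th percentile gave EGLN3 a bound of 0.30. Its ratio was 1.18 or more under the other settings that measured it. The second probe set, 219232_s_at, had a level of 231 in the array labelled RUNX2 and 41.3 in the empty vector array. Since the empty vector value lay below the floor, this probe set was at least 4.18-fold higher (log2 ratio of at least 2.06). Both EGLN3 probe sets thus went the same way. The gene ranked 34 of 12729 from the highest ratio.

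EGLN1 (PHD2), the prolyl hydroxylase with the main part in setting HIF levels under normal oxygen, differed little. Its brightest probe set, 223046_at, read 834 in the array labelled RUNX2 and 777 in the empty vector array, a log2 ratio of 0.10. Of its other probe sets, 221497_x_at read 148 in the array labelled RUNX2 and 112 in the empty vector array (log2 ratio 0.39). The levels of 224314_s_at were 64.5 with the RUNX2 label and 44.6 with empty vector, which gives a bound of at least 0.22. A further one, 223045_at, was below the floor on both arrays. The ratios of the measured EGLN1 probe sets span about the technical SD.

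EGLN2 (PHD1), a hydroxylase known as an estrogen-responsive member of the family, could not be followed. Its own probe set, 227147_s_at, read 19.4 in the array labelled RUNX2 and 21.4 in the empty vector array, below the floor on both. Another 2 probe sets carry EGLN2 together with other gene symbols and were not used.

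VHL was measured by 1559227_s_at, with 204 in the array labelled RUNX2 and 165 in the empty vector array, a log2 ratio of 0.30 (1.24-fold). The other VHL probe set, 203844_at, read 7.20 in the array labelled RUNX2 and 8.41 in the empty vector array, far below the floor on both arrays, so VHL rests on 1 probe set.

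HIF1A, the oxygen-regulated alpha subunit, also rests on 1 probe set, 200989_at. It read 5807 in the array labelled RUNX2 and 4701 in the empty vector array, a log2 ratio of 0.30 (1.24-fold). Of all measured genes, 16.2% had a higher ratio than HIF1A, which places it in the upper part of the distribution but well short of 2-fold.

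Among the targets, ANKRD37 had the highest ratio. It encodes a small ankyrin-repeat protein and is a well-known direct HIF1 target. Its probe set 227337_at read 249 in the array labelled RUNX2 and 81.6 in the empty vector array, a log2 ratio of 1.61 (3.05-fold) and rank 47 of 12729. As for EGLN3, the empty vector level was not far above the floor of 55.3. Raising the floor to the 75th percentile gave ANKRD37 a bound of 0.34, and its ratio was 1.14 or more under the other settings. The other ANKRD37 probe set, 242548_x_at, was below the floor, and its deposited value of 24.6 was equal on both arrays in every digit. It was 1 of 1447 non-control probe sets with such equal values.

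ADM encodes adrenomedullin, a secreted vasodilator peptide that hypoxia induces in many cell types. Its probe set 202912_at read 5267 in the array labelled RUNX2 and 2632 in the empty vector array, a log2 ratio of 1.0006 (2.0008-fold), at rank 181. It sits on the 2-fold threshold itself, and quantile normalization (0.98) or an offset in place of the floor (0.98) put it just below.

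BNIP3, a mitochondrial outer membrane protein that recruits the autophagy machinery, was higher in both of its probe sets. The brighter, 201849_at, read 473 in the array labelled RUNX2 and 260.1 in the empty vector array, a log2 ratio of 0.86 (1.82-fold). The dimmer, 201848_s_at, read 155 in the array labelled RUNX2 and 96.8 in the empty vector array, a log2 ratio of 0.68 (1.60-fold). Both BNIP3 values stayed above the floor on both arrays and within the technical SD of each other.

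NDRG1, a gene induced by differentiation, hypoxia and other stress, had 1 probe set. It read 5575 in the array labelled RUNX2 and 3702 in the empty vector array, a log2 ratio of 0.59 (1.51-fold). Of all measured genes, 5.64% had a higher ratio.

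The order of the ratios ran from EGLN3 over ANKRD37, ADM, BNIP3, NDRG1, HIF1A and VHL to EGLN1. Of the 7 gaps between neighbours, only that between ANKRD37 and ADM, 0.61 on the log2 scale, was wider than the technical SD. That SD is one of single ratios and not of gaps, so the order was not tested. EGLN3 and ANKRD37 lay 0.09 apart, and ADM and BNIP3 0.14 apart. The 4 measured targets had ratios from 0.59 to 1.61. The measured regulators other than EGLN3, with HIF1A, had ratios from 0.10 to 0.30.

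**Figure D2:**
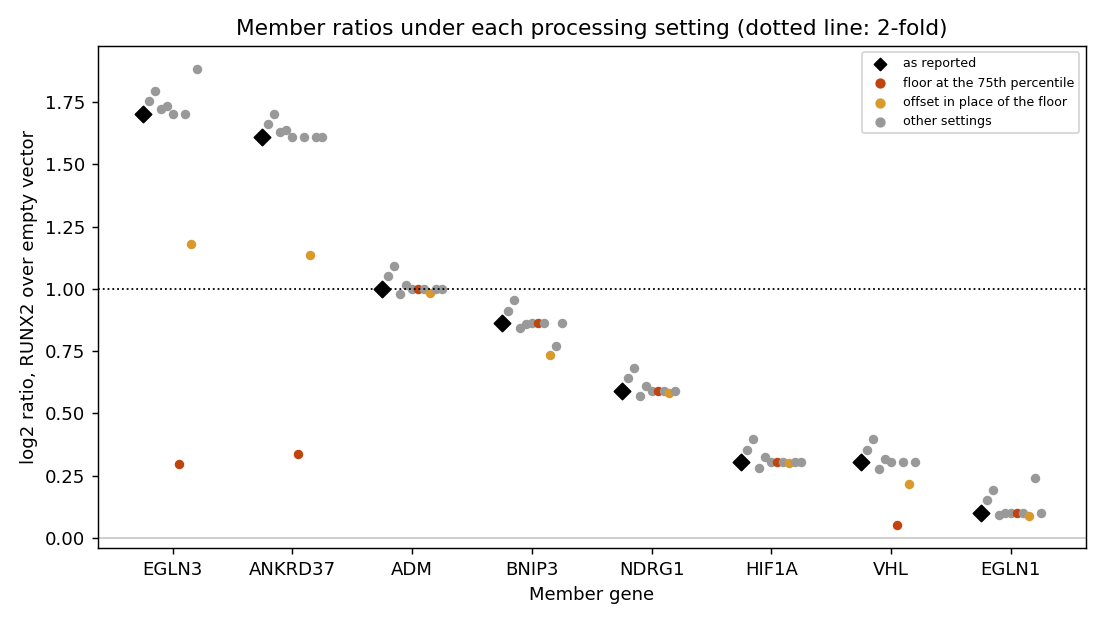
Log2 ratio, array labelled RUNX2 over empty vector array, of the 8 measured member genes as reported (diamonds) and under 10 other settings (circles). EGLN3 and ANKRD37 drop to 0.30 and 0.34 with the floor at the 75th percentile, which their empty vector values do not reach. VHL drops to 0.05 at that floor, and the other genes stay close to the reported ratios.

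Other genes of the pathway were read from lists by role. Of 9 HIF subunits, coactivators and inhibitors, 8 were measured, with a median log2 ratio of 0.01. CITED2, which competes with HIF1A for the coactivators CREBBP and EP300 and is itself a hypoxia target, was 2.43-fold higher, with 407 in the array labelled RUNX2 and 168 in the empty vector array. Its other probe sets had log2 ratios of 0.06 and 1.36. EPAS1, the alpha subunit of HIF2, had 4207 in the array labelled RUNX2 and 2959 in the empty vector array (log2 ratio 0.51). ARNT, the partner of both alpha subunits, had -0.07, with -0.67 to 0.17 in other probe sets. HIF1AN, the asparagine hydroxylase that blocks coactivator binding, had -0.09, with 0.02 and 0.72 in other probe sets. HIF3A had a bound of -0.35, with a bound of 0.04 in its other measured probe set. EP300 had 0.32, with 0.10 in its other probe set, and CITED4 -0.20.

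A list of VHL partners in the ubiquitin ligase and SIAH ligases, which target EGLN proteins, also held other genes such as OS9 and USP20. It gave a median of -0.01 over 9 measured genes of 10, and 0 passed 2-fold either way. By the brightest probe set, the widest ratios were OS9 and USP20, both at -0.37, RBX1 at 0.35 and ELOC at 0.29. RBX1 is the RING subunit and ELOC an elongin subunit. The other probe set had -0.20 for OS9 and 0.49 for ELOC. CUL2 had 0.12, but 0.89 in its other probe set. Collagen and histone hydroxylases, which like EGLN use oxygen, iron and 2-oxoglutarate, gave a median of -0.16 over 11 measured genes of 12. None passed 2-fold. The widest ratios were those of the procollagen hydroxylases PLOD2 (0.39) and P4HA1 (0.35), the histone demethylase KDM3A (0.36) and P4HTM (-0.36). The other 7 measured genes were below 0, among them the relatives P4HA2 (-0.16), PLOD1 (-0.20) and KDM4B (-0.20).

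A longer list of 31 hypoxia targets outside glycolysis had 25 measured genes and a median of 0.11, with 2 genes higher and 1 lower by 2-fold or more. MAFF, a small MAF transcription factor, was 2.77-fold higher, with 297 in the array labelled RUNX2 and 107 in the empty vector array, but had a log2 ratio of 0.18 in its other probe set. TFRC, the transferrin receptor, was 2.33-fold higher, with 4964 in the array labelled RUNX2 and 2132 in the empty vector array, and its other probe sets had -0.17 and 1.33. RORA was at least 2.06-fold lower, its value of 40.5 in the array labelled RUNX2 being below the floor against 107 in the empty vector array. MXI1, a MYC antagonist, had -0.90, the glycoprotein STC2 0.69 and the lysyl oxidase LOXL2 0.63. The other measured probe sets had 0.06 for STC2 and -0.42 for LOXL2. VEGFA and BNIP3L, the paralogue of BNIP3, were named after their values were seen. VEGFA had 0.12, with 0.19 to 0.58 in other probe sets. BNIP3L had -0.22, smaller in size than the technical SD, and -0.03 in its other probe set. PLIN2, LOX, EPO and CXCR4 were below the floor on both arrays.

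Glycolytic hypoxia genes had 18 measured of 20 genes and a median of 0.33, with 17 above 0. By the brightest probe set, 6 were higher by 1.5-fold or more and 0 by 2-fold or more, sizes that 5.77% and 1.42% of all genes reached. HK2 had 0.99, with bounds of 0.26 and 0.43 in other probe sets, and LDHA had 0.83. PGK1 and ALDOA were named after their values were seen. PGK1 had 0.83, with 0.12 to 1.32 in other probe sets, 1 of them a bound. ALDOA had 0.61, with 0.54 to 1.03 in other probe sets. For the peptide product of ADM, the receptor gene CALCRL and the accessory RAMP3 were below the floor on both arrays, and RAMP1 and RAMP2 exceeded it by little and on the empty vector array alone (59.0 and 56.5). Other carbonic anhydrases and pH transporters gave -0.17 as the median of 7 measured genes of 15. CA13 had 0.67, with -0.03 in its other probe set. CA14 had -0.42 and CA2 0.33. The other NDRG genes had -0.43 for NDRG3, -0.22 for NDRG2 and 0.13 for NDRG4, none near the 0.59 of NDRG1. Whether any of these lists differs from the members was not tested.

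**Figure D3:**
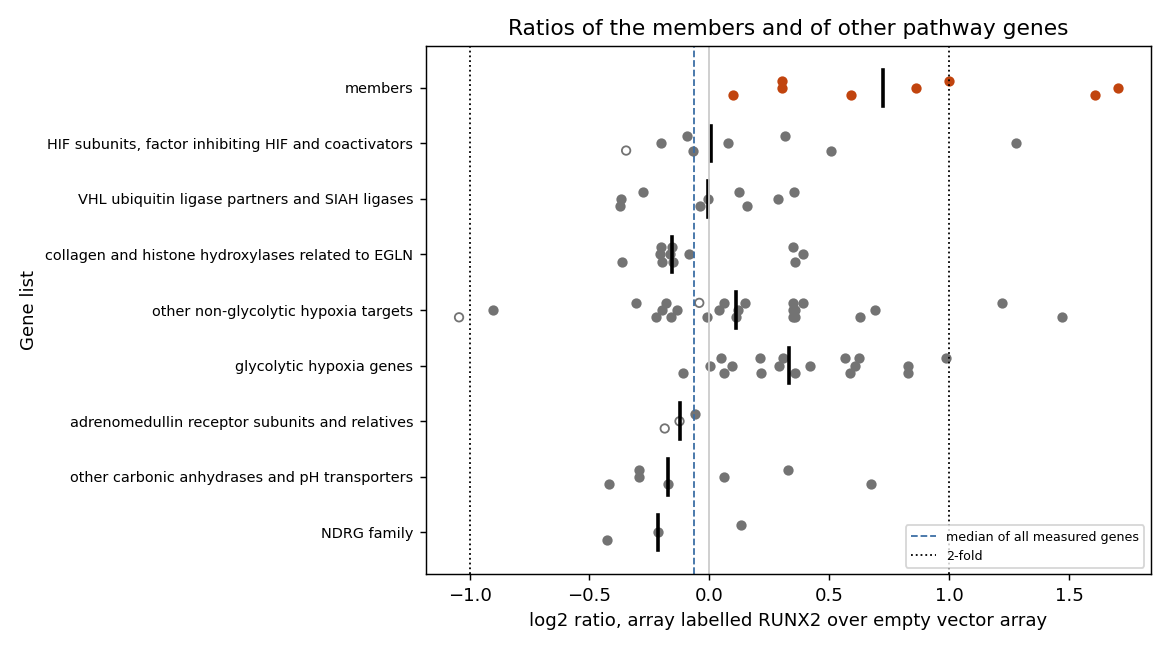
Log2 ratio, array labelled RUNX2 over empty vector array, of each measured gene by its brightest measured probe set, for the members and 8 lists of related genes. Black bars are list medians, open circles are bounds against the floor, dotted lines mark 2-fold either way and the dashed line the median of all measured genes, -0.06. The members' median is 0.73 and the list medians range from -0.22 to 0.33.

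The promoters of the members were read for letters that HIF and RUNX proteins bind. Several members were listed as known HIF targets, so hypoxia response letters near them are not independent of the choice. The RefSeq windows of assembly GRCh38.p14 run from 250 bases before to 50 after an annotated gene start. Windows were used for 8 of the 10 members, 10 windows in all, since HIF1A and EGLN2 have 2 starts each. No window was used for VHL and NDRG1, so the counts of member windows leave these genes out. Whether their promoters hold the letters was not examined. The core of the hypoxia response element was searched as ACGTG and GCGTG, and RUNX-type letters as TGTGGT and TGCGGT, on both strands. A palindromic CACGTG matches on each strand and counts as 2 overlapping matches. Hypoxia response cores stood in 7 of the 10 member windows, in 48.4% of all 35116 windows and in 59.7% of the 14954 windows of measured genes. The member windows include those of EGLN2 and CA9, which were not measured, so the share for measured genes is not over a like set. A match is a description of letters and not evidence of binding.

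The 250 bases before the start are printed below, 5′ to 3′ on the strand of the gene, for the genes with the 4 highest ratios and, as the member with the lowest, EGLN1. Capitals mark hypoxia response cores, written CACGT or CACGC where the match is on the other strand.
EGLN3, chr14:33951075-33951324, minus strand: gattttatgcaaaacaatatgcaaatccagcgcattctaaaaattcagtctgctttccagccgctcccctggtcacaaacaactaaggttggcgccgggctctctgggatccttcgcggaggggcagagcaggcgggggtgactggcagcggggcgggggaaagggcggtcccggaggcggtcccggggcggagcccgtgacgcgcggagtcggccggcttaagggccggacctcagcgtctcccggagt
ANKRD37, chr4:185396591-185396840, plus strand: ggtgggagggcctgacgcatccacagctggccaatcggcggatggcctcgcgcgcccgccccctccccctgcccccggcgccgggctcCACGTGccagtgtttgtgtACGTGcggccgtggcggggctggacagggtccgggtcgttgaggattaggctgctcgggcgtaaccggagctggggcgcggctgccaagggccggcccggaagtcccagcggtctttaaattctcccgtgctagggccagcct
ADM, chr11:10304823-10305072, plus strand: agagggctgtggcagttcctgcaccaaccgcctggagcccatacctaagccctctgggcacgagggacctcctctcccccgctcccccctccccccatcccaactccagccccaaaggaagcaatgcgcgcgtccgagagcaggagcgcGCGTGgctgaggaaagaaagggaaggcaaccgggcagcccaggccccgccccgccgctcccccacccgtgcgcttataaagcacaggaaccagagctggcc
BNIP3, chr10:131981924-131982173, minus strand: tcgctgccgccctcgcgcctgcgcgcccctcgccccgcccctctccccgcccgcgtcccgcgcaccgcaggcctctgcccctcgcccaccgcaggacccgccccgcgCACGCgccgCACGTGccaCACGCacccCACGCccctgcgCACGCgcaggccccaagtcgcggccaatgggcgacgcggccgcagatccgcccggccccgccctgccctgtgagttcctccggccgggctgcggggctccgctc
EGLN1, chr1:231422288-231422537, minus strand: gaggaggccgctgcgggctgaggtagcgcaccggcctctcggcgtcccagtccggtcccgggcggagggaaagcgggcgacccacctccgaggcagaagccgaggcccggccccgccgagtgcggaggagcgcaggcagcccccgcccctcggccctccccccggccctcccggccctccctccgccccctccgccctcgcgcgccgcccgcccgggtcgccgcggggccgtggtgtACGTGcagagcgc

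EGLN3, with the highest ratio, had no match in its window. ANKRD37 had 3 matches in 2 stretches, at positions -162 to -157 and -143 to -139 from the start. At least 3 matches were found in 10.1% of all windows and 13.9% of those of measured genes. ADM had 1 match, at -101 to -97. BNIP3 had 6 matches in 5 stretches between -143 and -100, a number that 0.923% of all windows and 1.32% of those of measured genes reached or passed. EGLN1, whose ratio was near 0, had 1 match next to its start, at -13 to -9. Among the windows not printed, the first start of HIF1A had 1 match, the first start of EGLN2 2 overlapping ones, and CA9 1 match at -18 to -14.

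RUNX-type letters stood in 1 of the 10 windows, that of BNIP3, as TGCGGT on the antisense strand at -187 to -182 and -163 to -158. Of all windows, 19.6% held such letters. In EGLN3, ANKRD37 and ADM, the members that were at least 2-fold higher, the letters searched for RUNX are not in this window.

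**Figure D4:**
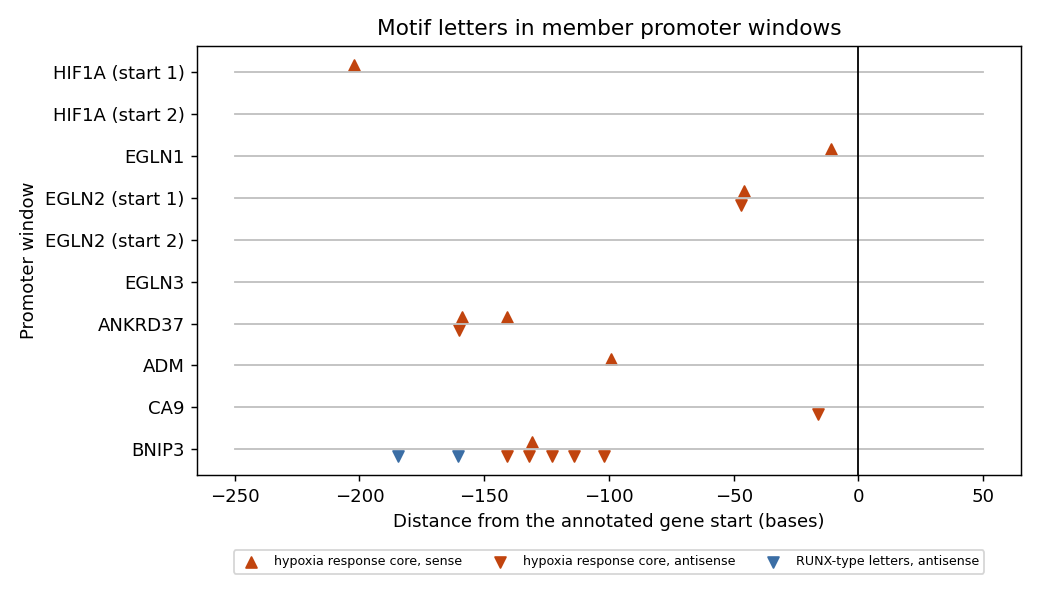
Matches to hypoxia response cores (red) and RUNX-type letters (blue) in 10 member promoter windows, by distance in bases from the annotated gene start, with triangles up for the sense and down for the antisense strand. BNIP3 has 6 hypoxia response matches and ANKRD37 3, and EGLN3 has none.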

How the data were processed

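Per the labels' protocols, total RNA from silica columns was made into biotinylated cRNA for Affymetrix arrays. The authors deposited 1 linear intensity per probe set and array, 54675 in each. MAS5 is named in the submitters' processing notes, and its version, scaling target and detection calls are not given in the sources used here. Samples were grouped by title. From the deposited intensities, 62 control probe sets were left out, and scaling, floor and log2 ratios were computed as described, with python 3.11.15 and pandas 2.3.3. Each gene was represented by its brightest measured probe set, by the mean of both log2 levels. Symbols came from the platform annotation, updated by Entrez ID through a RefSeq table of GRCh38.p14. The arrays' log2 values correlated with r = 0.986 across probe sets, which are not independent replicates. The scripts were tested on simulated data with planted changes of 4-fold, so the recovery of smaller changes was not tested.

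The members, the 8 lists of related genes and the 4 marker lists were chosen with earlier results of these data known. Named were all members, list genes past 2-fold and up to 4 more with the widest ratios, or up to 2 in the glycolytic list. Outside this rule, ARNT, HIF1AN, CUL2, P4HA2, PLOD1, KDM4B, VEGFA, BNIP3L, PGK1, ALDOA and some genes below the floor were also named. With 2 arrays a pattern is 1 ratio, so no genes of like pattern were sought. Motifs were counted in RefSeq promoter sequences. A planned comparison of EGLN protein sequences was not made.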

Additional observations from a re-analysis of the deposited data

How the results depend on the processing

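No paired analysis was possible because each group holds 1 array, and no array could be left out. Values were compared under 10 settings: the deposited scale, equal medians, quantile normalization, loess, a floor at the 25th percentile, one at the 75th, none at all, an offset, the mean over probe sets, and the table without _x_at and _s_at probe sets. The 8 member ratios stayed above 0 wherever they were measured. ADM, HIF1A, VHL, EGLN1, BNIP3 and NDRG1 moved by less than 0.293. With the floor at the 75th percentile, EGLN3 had 0.30, ANKRD37 0.34 and VHL 0.05, since low values are raised to a higher floor. The members' median was then 0.32 and the count of members at least 2-fold higher was 1, beside 1.35% of all genes measured at that floor. At that floor the carbonic anhydrase and pH list changed sign to 0.33. With an offset, EGLN3 had 1.18 and ANKRD37 1.14. The count of 3 became 2 with quantile normalization, with the offset and without _x_at and _s_at probe sets, which left 5 members measured and EGLN3 unmeasured. The shares of all genes at least 2-fold higher were 1.42%, 0.896% and 1.54%, in that order. The count was 5 at 1.5-fold and 0 at 4-fold, sizes that 5.77% and 0.173% of all genes reached upwards. These counts are by the brightest probe sets, and the other EGLN3 probe set was at least 4.18-fold higher. EGLN2, measured with the lower floor or none, had -0.14. Over all genes, 181 were higher by 2-fold and 187 lower, against 230 and 137 with equal medians and 114 and 91 with the offset.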
